A study of Mus musculus with 16 samples.

Results

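The genes described are the mouse Sult2a sulfotransferases, Sult2a1 to Sult2a8, and Sult1d1, a sulfotransferase of another subfamily. These 9 genes were chosen by name, with their ratios of drug-treated over control hepatocytes already known, and their probes were found by RefSeq accession. Of the 9, 8 had a probe (all but Sult2a5) and 7 had a probe bright enough to be tested (Sult2a7 did not), out of 20659 named genes on the array and 15053 tested.

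Primary hepatocytes from male C57Bl/J mice were cultured in Williams Medium E. They were given 100 µM SQ1 (squalestatin 1, an inhibitor of squalene synthase) or 30 µM pravastatin (a statin, which blocks cholesterol synthesis), or no drug, 48 h after plating, and were lysed after a further 48 h. Each of 16 Agilent 2-colour arrays carried treated RNA in 1 dye and control RNA in the other, with 500 ng of total RNA put into each amplification, 8 arrays for SQ1 and 8 for pravastatin, with the dyes swapped on 4 arrays of each drug. Squalestatins act at far lower doses than the one labelled, so that its unit is in doubt and the doses of the drugs cannot be set against each other. The cultures are described as biological replicates, and nothing says that each came from its own animal, so that errors measure the spread between these cultures. The control cultures carry the same 8 numbers for both drugs, so that the SQ1 and pravastatin comparisons share their controls.

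Cytosolic sulfotransferases move a sulfonate group from the cofactor PAPS to hydroxyl or amine groups of small molecules, which makes these more soluble in water. SULT2A enzymes act on hydroxysteroids such as dehydroepiandrosterone and on bile acids, and SULT1 enzymes act mainly on phenols, catecholamines and oestrogens. In mouse liver Sult2a transcripts are known to be far more abundant in females than in males, and they are induced through nuclear receptors that sense bile acids and foreign compounds, among them the farnesoid X receptor, the pregnane X receptor (PXR) and the constitutive androstane receptor (CAR).

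The Sult2a genes lie side by side on chromosome 7 in the order Sult2a5, Sult2a2, Sult2a1, Sult2a4, Sult2a3, Sult2a6, Sult2a8 and Sult2a7, with no other protein-coding gene between them in RefSeq GRCm38.p6. Sult1d1 lies on chromosome 5 between Sult1b1 and Sult1e1. The RefSeq promoter table held windows for Sult1d1, Sult2a3, Sult2a4, Sult2a5, Sult2a6 and Sult2a8, and the 250 bases before each start were read. The windows of 4 Sult2a genes share 1 block, which is printed here because it shows how alike the regulatory sequences of these neighbours are and because its start resembles the inverted repeat that nuclear receptors are known to bind. The capitals mark the first 12 bases of the block.
Sult2a5, chr7:13623788-13623851, plus strand: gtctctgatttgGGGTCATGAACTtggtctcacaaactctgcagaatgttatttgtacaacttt
Sult2a4, chr7:13989783-13989838, minus strand: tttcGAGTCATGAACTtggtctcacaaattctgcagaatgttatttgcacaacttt
Sult2a3, chr7:14123187-14123250, minus strand: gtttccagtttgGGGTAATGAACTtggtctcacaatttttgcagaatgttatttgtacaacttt
Sult2a6, chr7:14255030-14255093, minus strand: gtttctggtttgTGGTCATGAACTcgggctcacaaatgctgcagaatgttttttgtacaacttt

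Over the 52 bases from the first capital, the windows were 84.6% (Sult2a3 and Sult2a6) to 94.2% (Sult2a5 and Sult2a4) identical. Within the 12 capitals, counted from 1 at the 5′ end and set against Sult2a5, Sult2a4 carries G2A, Sult2a3 carries C5A and Sult2a6 carries G1T. Relative to the annotated start, the capitals began at position -167 in Sult2a5, -246 in Sult2a4, -190 in Sult2a3 and -211 in Sult2a6. The 9 letters TCATGAACT, chosen after these sequences were seen and searched on both strands, were in 63 of 32851 windows of 250 bases (0.192%). They were in the windows of Sult2a4, Sult2a5 and Sult2a6, and in 3 of the 7 windows of these genes, in which Sult2a8 counts with 2 starts. The shorter motif TGAACT, which the 9 letters contain, was in 11.8% of all windows and in 5 of the 7. Another known receptor motif, AGGTCA, was in 14.0% of all windows and in 1 of the 7, at the second start of Sult2a8. These matches describe letters only, and no binding was measured.

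The window of Sult2a8 is printed because this was the tested Sult2a gene whose ratio with SQ1 was below 0, though without passing an adjusted p of 0.05. At the start shown it held none of these motifs, which says nothing of what binds there, while its second start held AGGTCA. Sult2a1 and Sult2a2 had no window, and a tie between motifs and ratios was not tested. The window of Sult1d1 is printed beside it, with its 1 match to AGTTCA, the other strand of TGAACT, in capitals.
Sult2a8, chr7:14446588-14446837, minus strand: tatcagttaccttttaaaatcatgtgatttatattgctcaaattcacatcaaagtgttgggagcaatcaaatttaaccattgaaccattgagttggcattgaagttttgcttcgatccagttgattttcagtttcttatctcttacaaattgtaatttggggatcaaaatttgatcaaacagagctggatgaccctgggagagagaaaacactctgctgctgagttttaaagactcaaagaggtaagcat
Sult1d1, chr5:87569007-87569256, minus strand: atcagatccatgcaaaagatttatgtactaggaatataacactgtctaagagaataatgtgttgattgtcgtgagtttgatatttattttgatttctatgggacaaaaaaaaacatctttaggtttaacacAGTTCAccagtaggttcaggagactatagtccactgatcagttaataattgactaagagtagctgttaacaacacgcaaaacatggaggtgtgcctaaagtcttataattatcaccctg

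All values below are log2 ratios of treated over control with the dye effect removed, or log2 channel intensities, called levels. Errors on ratios are standard errors of 1 limma fit over all arrays. Between 58.9% and 69.6% of probes in the treated channels and 59.4% and 68.0% in the control channels were well above background, a mark that Agilent's software sets on each spot. All 9 hepatocyte markers (Alb and Apoa1 among them) were well above background in all 16 control channels. So were 7 of 7 Kupffer cell and leukocyte markers with a probe, 6 of 7 stellate, 6 of 6 endothelial and 3 of 5 cholangiocyte markers. The cultures thus held hepatocyte RNA and transcripts used as markers of other liver cells. Which cells these transcripts came from was not tested. In such bulk samples fewer cells of a type and less RNA per cell cannot be told apart. Fdft1, which encodes squalene synthase, the target of SQ1, was higher with SQ1 by 1.06 ± 0.09 and with pravastatin by 0.48 ± 0.09.

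With SQ1 the ratios of 6 of the 7 tested genes were above 0 and past an adjusted p of 0.05, and with pravastatin 5 of 7 were below 0 and past it. Of all 15053 genes 32.3% passed with SQ1, 15.7% as higher and 16.5% as lower, and 66.7% with pravastatin, 30.9% as higher and 35.8% as lower. Sult2a3 and Sult2a4 entered the tested genes only through the SQ1-treated channels, in which they were brighter, so that their place in the SQ1 count follows from the filter. Sult2a1 with pravastatin did not pass with slide, replicate number or scan day as a block, nor Sult2a3 with slide or scan day, and with either of these 2 blocks 3 of 7 passed as lower. With SQ1, 6 of 7 passed as higher with slide as a block and 5 of 7 with scan day, where Sult2a3 did not pass. The members were picked on these ratios, so that the counts describe the choice and carry no test. Their median was 0.90 with SQ1 and -0.32 with pravastatin, beside medians over all genes tested of -0.0024 and -0.012. The SQ1 and pravastatin arrays did not overlap for Sult1d1, Sult2a1, Sult2a2 and Sult2a6. The share of all genes without such overlap was not counted, so that this describes the choice of genes as well. By adjusted p, a different measure, 53.1% of all genes differed between the drugs at the same threshold. Of all genes, 29.3% passed with the higher ratio in SQ1 and 23.8% passed with the lower. Among the 15053 genes, Sult2a1 stood at place 26 from the highest SQ1 ratio, Sult1d1 at 43, Sult2a6 at 49, Sult2a2 at 59, Sult2a4 at 129 and Sult2a3 at 1175. With pravastatin, Sult1d1 stood at place 664 from the lowest, and the other genes at 1735 (Sult2a2) or further up. All these places belong to this fit alone. The ratios of Sult2a1, Sult2a2, Sult2a3, Sult2a4 and Sult2a6 changed in size with the background correction, as given below, so that their places are not firm.

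**Figure D1:**
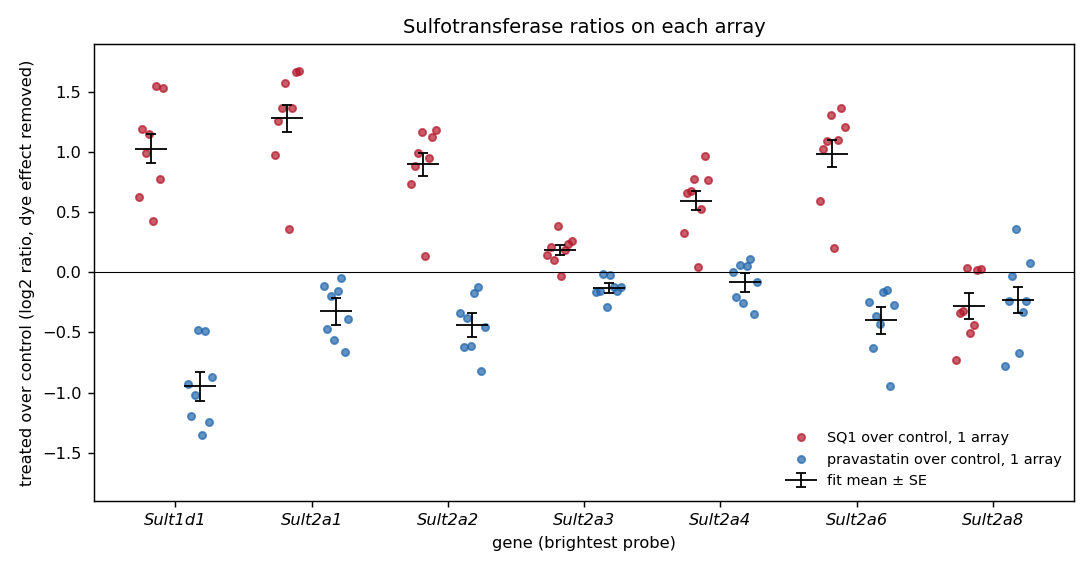
Log2 ratio of treated over control (vertical axis, dye effect removed) on each of the 8 SQ1 arrays (red, left of each pair) and 8 pravastatin arrays (blue, right) for the 7 tested genes, with the fitted mean and standard error in black. For Sult1d1, Sult2a1, Sult2a2 and Sult2a6 the SQ1 points lie above 0 and above every pravastatin point, while for Sult2a8 both sets lie mostly below 0 and overlap.

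Sult1d1 encodes an enzyme that sulfonates catecholamines and eicosanoids in mouse. Its SQ1 ratios ran from 0.43 through a median of 1.07 to 1.55, and the fitted mean was 1.03 ± 0.12, or 2.04-fold higher than control (n = 8 arrays). Its pravastatin ratios ran from -1.35 through -0.97 to -0.48, with a mean of -0.95 ± 0.12, or 1.93-fold lower than control. Every SQ1 array was above 0 and every pravastatin array below 0.

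The levels behind the Sult1d1 ratios were well above background in every channel. In SQ1-treated cells the level ran from 15.57 through 15.92 to 16.23, against 14.42 through 14.84 to 15.34 in their controls, and the groups did not overlap. In pravastatin-treated cells it ran from 13.87 through 14.11 to 14.72, against 14.50 through 15.17 to 15.47 in their controls, where the highest treated culture lay above the lowest control. A second, dimmer probe of Sult1d1 gave 0.88 ± 0.13 with SQ1 and -1.12 ± 0.13 with pravastatin. On that probe the levels overlapped with SQ1 and did not with pravastatin. Sult1d1 therefore kept its direction on both probes and with both drugs.

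Sult2a1 encodes a hydroxysteroid and bile acid sulfotransferase, the mouse gene named after the human enzyme. Its SQ1 ratios ran from 0.36 through 1.37 to 1.67, with a mean of 1.28 ± 0.12, or 2.43-fold higher. Its pravastatin ratios ran from -0.66 through -0.29 to -0.05, with a mean of -0.32 ± 0.12, or 1.25-fold lower. All arrays of each drug lay on 1 side of 0, and the drugs did not overlap.

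The level of Sult2a1 varied more between cultures than the ratio did. In SQ1-treated cells it ran from 7.06 through 8.20 to 9.51, against 6.36 through 6.89 to 7.94 in their controls. In pravastatin-treated cells it ran from 6.27 through 6.56 to 7.21, against 6.40 through 6.82 to 7.98 in their controls. Treated and control levels overlapped for both drugs, though their means differed. With SQ1 the mean was 8.25 in the treated and 6.97 in the control channels, and with pravastatin 6.62 and 6.95. Sult2a1 was well above background on 8 SQ1 arrays in the treated channel and 7 in the control channel, and on 5 pravastatin arrays in the treated channel and 8 in the control channel.

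Sult2a2 encodes another hydroxysteroid sulfotransferase of the cluster. Its SQ1 ratios ran from 0.14 through 0.97 to 1.19, with a mean of 0.90 ± 0.10, or 1.86-fold higher. Its pravastatin ratios ran from -0.82 through -0.42 to -0.12, with a mean of -0.44 ± 0.10, or 1.36-fold lower. The drugs did not overlap, and 1 SQ1 array, replicate 5, stood apart at 0.14. The level of Sult2a2 in SQ1-treated cells ran from 7.15 through 7.93 to 9.12, against 6.64 through 7.03 to 8.03 in their controls. In pravastatin-treated cells it ran from 6.41 through 6.73 to 6.97, against 6.81 through 7.01 to 7.82 in their controls. Both pairs overlapped, and all channels but 1 pravastatin-treated one were well above background.

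Sult2a6 lies beside Sult2a3 in the cluster and its product belongs to the same subfamily. On its brightest probe the SQ1 ratios ran from 0.20 through 1.1 to 1.37, with a mean of 0.99 ± 0.11, or 1.98-fold higher. The pravastatin ratios ran from -0.94 through -0.32 to -0.15, with a mean of -0.40 ± 0.11, or 1.32-fold lower. Every array of each drug lay on 1 side of 0. The level of Sult2a6 in SQ1-treated cells ran from 7.16 through 7.96 to 9.18, against 6.59 through 6.99 to 7.78 in their controls. In pravastatin-treated cells it ran from 6.24 through 6.62 to 6.94, against 6.70 through 6.97 to 7.86 in their controls, and both pairs overlapped. A second probe gave 0.77 ± 0.09 with SQ1 and -0.22 ± 0.09 with pravastatin and was well above background on only 2 pravastatin-treated channels. The last probe of Sult2a6 was not well above background in any channel, so no fold is given for it. The first 2 probes went the same way with both drugs, and on each of them the drugs did not overlap.

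**Figure D2:**
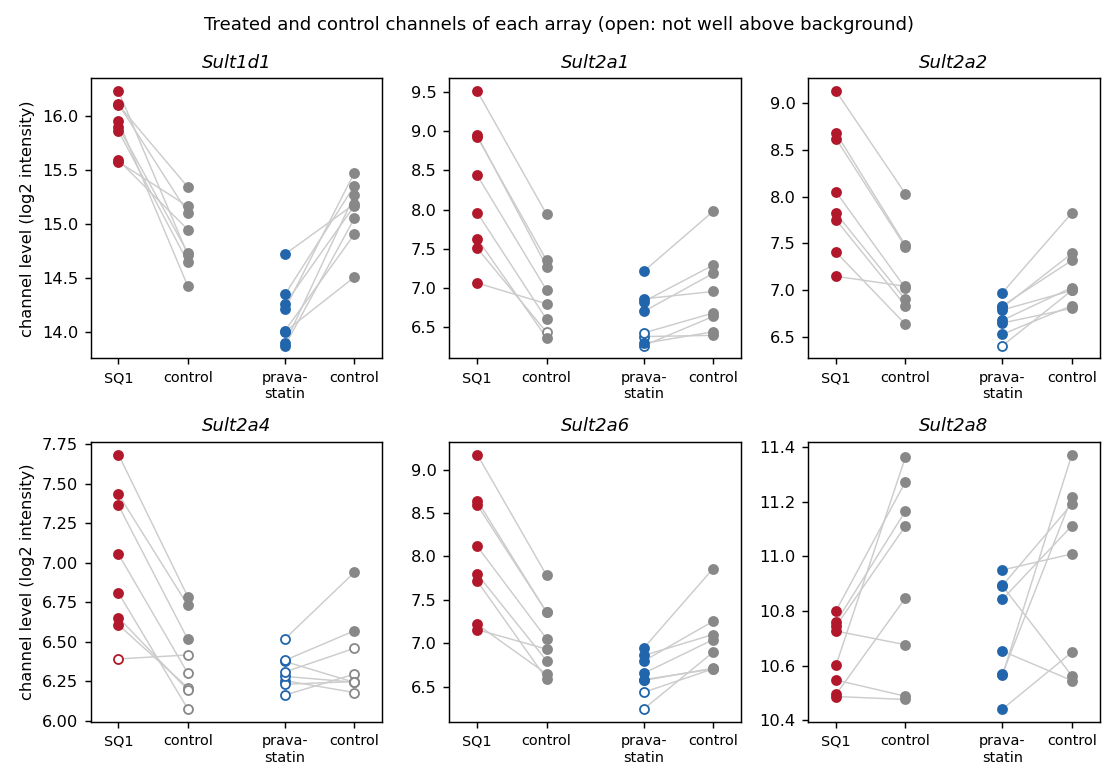
Log2 channel level (vertical axis, 1 scale per gene) of the treated and control channels of each array, joined by a grey line, for SQ1 (red) and pravastatin (blue) with their controls in grey at the right of each pair. Open points were not well above background: none for Sult1d1 and Sult2a8, and all 8 pravastatin-treated channels for Sult2a4.

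Sult2a4 and Sult2a3 were dim. Sult2a4 was well above background on 7 SQ1-treated and 3 control channels of the SQ1 arrays, and on 0 pravastatin-treated and 2 control channels of the pravastatin arrays. Its SQ1 ratios ran from 0.05 through 0.67 to 0.97, with a mean of 0.59 ± 0.08, or 1.51-fold higher. Its pravastatin ratios ran from -0.35 through -0.04 to 0.11, with a mean of -0.08 ± 0.08. Since no pravastatin-treated channel and only 2 of the 8 control channels were well above background, no fold is given for pravastatin.

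Sult2a3 was well above background on 4 SQ1-treated channels and 1 of their controls, and on none of the 16 channels of the pravastatin arrays. Its SQ1 ratios ran from -0.03 through 0.20 to 0.38, with a mean of 0.19 ± 0.04. Its pravastatin ratios averaged -0.13 ± 0.04, with both channels in the background, so that no fold is given. For Sult2a3 and Sult2a4 the SQ1 and pravastatin arrays overlapped. Sult2a7, which was not tested, was well above background on 0 of 16 channels of the SQ1 arrays, and on 1 treated and 1 control channel of the pravastatin arrays. Sult2a5 was not measured.

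Sult2a8 encodes an enzyme known from mouse liver to sulfonate bile acids. With SQ1 it did not share the direction of the other tested Sult2a genes, while with pravastatin its mean was below 0, as theirs were. Its SQ1 ratios ran from -0.73 through -0.33 to 0.04, with a mean of -0.28 ± 0.11, and its pravastatin ratios from -0.78 through -0.24 to 0.36, with a mean of -0.23 ± 0.11. Neither mean passed an adjusted p of 0.05, while with replicate number as a block both did. The ratio was below 0 on 5 of 8 SQ1 arrays and 6 of 8 pravastatin arrays, and the drugs overlapped.

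Every channel of Sult2a8 was well above background, so that dimness does not limit its values. In SQ1-treated cells the level ran from 10.49 through 10.66 to 10.80, against 10.48 through 10.98 to 11.36 in their controls. In pravastatin-treated cells it ran from 10.44 through 10.75 to 10.95, against 10.55 through 11.06 to 11.37 in their controls. The SD over the 8 SQ1-treated cultures was 0.13 and over their controls 0.35, and 0.19 over the pravastatin-treated cultures and 0.32 over their controls.

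Close relatives may share a probe. The sequences of the probes and of the transcripts were not used here, so that signal from 1 Sult2a transcript on the probe of another was not tested. The root mean square difference of the ratios over the 16 arrays gives how alike 2 probes ran. It was 0.124 between Sult2a2 and Sult2a6, 0.241 between Sult2a1 and Sult2a6, and 0.296 between Sult2a1 and Sult2a2. The 2 probes of the single gene Sult1d1 differed by 0.21, and the 2 brighter probes of Sult2a6 by 0.246. The measure is also small where ratios are small, at 0.132 between the dim probe of Sult2a7 and the last probe of Sult2a6. The values of Sult2a2 and Sult2a6 thus lay closer to each other than those of 2 probes of 1 gene, and whether Sult2a1, Sult2a2 and Sult2a6 were measured separately was not tested. Between Sult2a1 and Sult2a8 the difference was 1.18.

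SQ1 replicate 5 had the lowest SQ1 ratio of all 8 arrays for Sult1d1, Sult2a1, Sult2a2, Sult2a3, Sult2a4 and Sult2a6. On this array Fdft1 was at 1.06, beside a median over the 8 SQ1 arrays of 1.05. Its deposited ratios had the lowest correlation with the scanner files (0.742). Without this array the SQ1 means were 1.42 for Sult2a1, 1.01 for Sult2a2, 1.11 for Sult2a6, 0.68 for Sult2a4, 0.22 for Sult2a3 and 1.12 for Sult1d1.

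How large the ratios of the genes near background came out depended on the background correction. The fit used an offset of 50 intensity units, which by its construction pulls ratios near background towards 0. With the signals as processed by Agilent's software, the SQ1 ratios were 2.31 for Sult2a1, 1.62 for Sult2a2, 1.77 for Sult2a6, 1.38 for Sult2a3 and 2.44 for Sult2a4. With pravastatin they were -1.06 for Sult2a1, -1.25 for Sult2a2, -1.15 for Sult2a6, -0.73 for Sult2a3 and -0.61 for Sult2a4. Sult1d1 gave 1.00 and -0.88 and Sult2a8 -0.29 and -0.17, close to their values above. The direction of each gene was kept, and the fold changes of Sult2a1, Sult2a2, Sult2a3, Sult2a4 and Sult2a6 are no firm sizes. The order of the SQ1 ratios changed as well, with Sult2a4 above Sult2a1 in the processed signals.

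**Figure D3:**
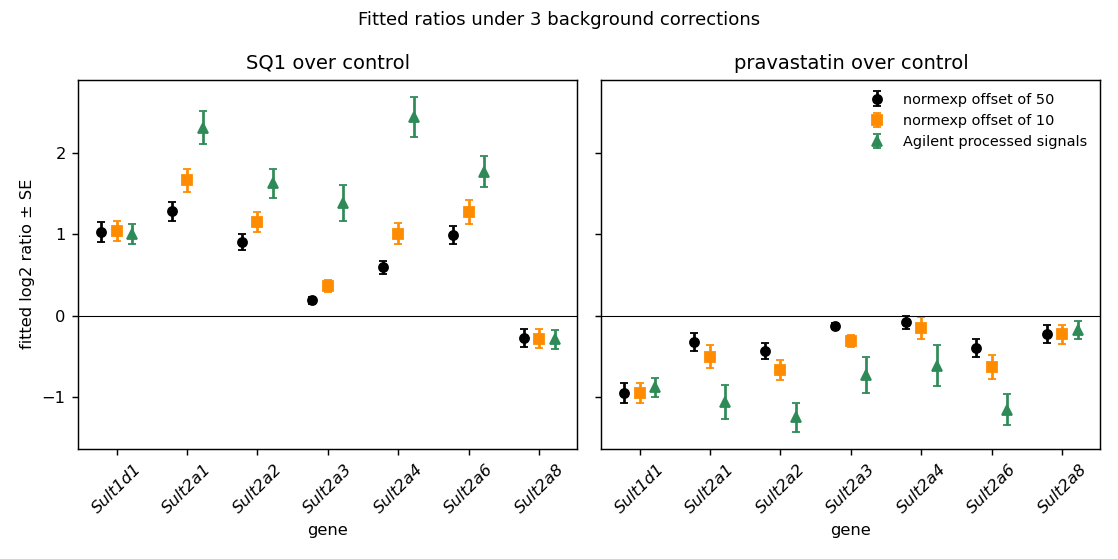
Fitted log2 ratio and standard error (vertical axis) of SQ1 over control (left panel) and pravastatin over control (right panel) for the 7 tested genes, from normexp with an offset of 50 (black), an offset of 10 (orange) and Agilent processed signals (green). Sult1d1 and Sult2a8 stay in place, while the ratios of Sult2a1, Sult2a2, Sult2a3, Sult2a4 and Sult2a6 move away from 0, such as Sult2a4 with SQ1 at 0.59, 1.00 and 2.44.

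The arrays sat on 4 slides of 4 arrays, and slide and set of cultures cannot be told apart. SQ1 arrays were on slides 1 and 2 and pravastatin arrays on slides 3 and 4, so that the drugs were compared between slides. Slide 3 was scanned on another day than the rest. With SQ1, Sult2a1 averaged 0.99 on slide 1 and 1.57 on slide 2, a difference of -0.58 ± 0.18 (limma adjusted p = 0.0438). Sult2a4 averaged 0.39 and 0.80, a difference of -0.41 ± 0.12 (limma adjusted p = 0.0409). Sult2a2 (0.68 and 1.12), Sult2a6 (0.73 and 1.25) and Sult2a3 (0.13 and 0.24) had the same order without passing, at limma adjusted p = 0.0767, 0.0815 and 0.323. Of all genes, 12.3% differed between these slides. Sult1d1 did not pass (0.95 and 1.11, limma adjusted p = 0.72). The slide differences of Sult2a1 and Sult2a4 were lost with median centring of each array in place of loess and with Agilent processed signals, where that of Sult2a1 was 0.011.

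With pravastatin, Sult2a8 averaged -0.50 on slide 3 and 0.04 on slide 4, a difference of -0.55 ± 0.14 (limma adjusted p = 0.0118), which median centring removed as a call (adjusted p = 0.299). Its SQ1 ratios were -0.50 on slide 1 and -0.06 on slide 2 (limma adjusted p = 0.052). Of all genes, 21.8% differed between slides 3 and 4. For Sult2a8 the cultures on slides 1 and 3 thus had the lower ratio with either drug, and these cultures share their control numbers.

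The levels of untreated cultures also ran apart between slides for some of these genes, without passing after adjustment. Sult2a1 had a control level of 6.55 ± 0.19 on slide 1 and 7.39 ± 0.40 on slide 2 (SD, n = 4 each), and 6.54 ± 0.14 on slide 3 and 7.35 ± 0.44 on slide 4. The groups did not overlap, and an exact two-sided permutation test gave p = 0.0286, the smallest that 4 against 4 cultures allow, and p = 0.0572 adjusted over the 18 comparisons made. Sult2a8 went the other way, at 11.23 ± 0.11 on slide 1 and 10.62 ± 0.18 on slide 2, and 11.22 ± 0.11 on slide 3 and 10.69 ± 0.22 on slide 4, with the same exact p = 0.0286 and adjusted p = 0.0572. Sult2a6 was at 6.74 and 7.39 on slides 1 and 2, also without overlap. None of the 18 comparisons passed after adjustment. With p no lower than 0.0286, they could pass only if most of them lay at that floor together, so that not passing does not show equal levels. The controls of slides 3 and 4 carry the same numbers as those of slides 1 and 2, so that they are no independent repeat.

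Sult2a1 and Sult2a8 levels of 1 control culture came out alike on its SQ1 and its pravastatin array. The mean absolute difference between same-numbered controls was 0.064 for Sult2a1 and 0.053 for Sult2a8. Between cultures the Sult2a1 level spanned 1.56, or 2.94-fold, with the lowest in number 6 and the highest in number 7. The Sult2a8 level spanned 0.85, or 1.80-fold, from number 8 to number 1. Sult2a2 spanned 1.19, Sult2a6 1.18 and Sult1d1 0.94, where same-numbered controls differed by 0.10, 0.12 and 0.23. What set the cultures apart was not tested.

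**Figure D4:**
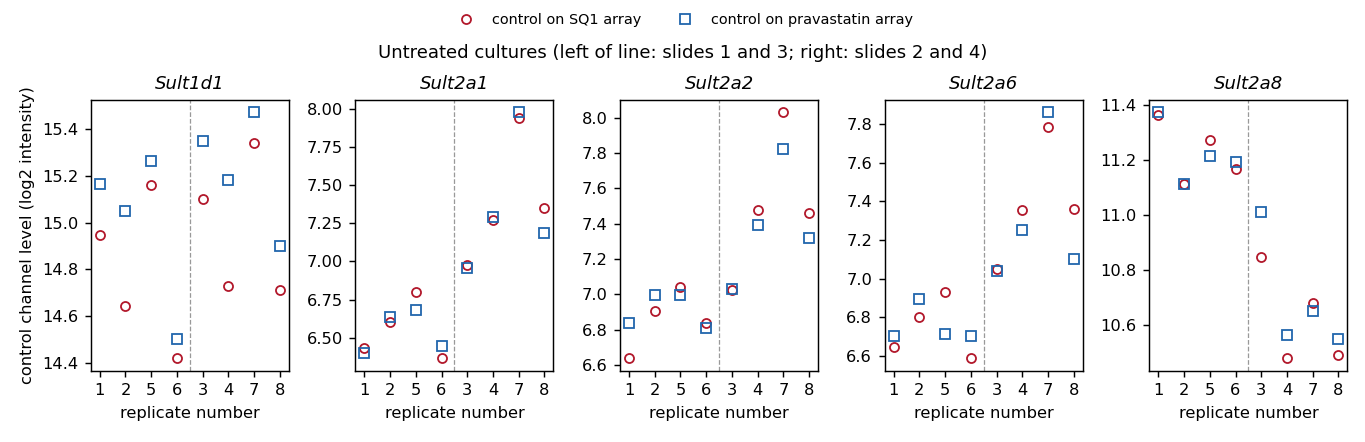
Log2 level of 5 genes in the control channel (vertical axis, 1 scale per gene) by replicate number, on SQ1 arrays (red circles) and pravastatin arrays (blue squares), with numbers of slides 1 and 3 left of the dashed line and of slides 2 and 4 right of it. Same-numbered controls lie close together for Sult2a1 and Sult2a8, and the cultures at the right are higher for Sult2a1 and lower for Sult2a8.

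Of the 12 other cytosolic sulfotransferases on the list, 7 were tested. With SQ1, 3 rose and 0 fell, with a median of 0.10, and with pravastatin 1 rose and 4 fell, with a median of -0.43. Sult1e1, an oestrogen sulfotransferase and the neighbour of Sult1d1, rose with SQ1 by 0.89 ± 0.10 (arrays from 0.48 to 1.23, limma adjusted p = 7.2e-06) and was at -0.07 ± 0.10 with pravastatin. Sult1a1, the main phenol sulfotransferase of liver, rose with SQ1 by 0.55 ± 0.12 (limma adjusted p = 0.00161, and 0.0541 with scan day as a block) and fell by 1.43 ± 0.12 with pravastatin (limma adjusted p = 1.5e-08). Sult1b1, which acts on thyroid hormones and is the other neighbour of Sult1d1, rose with SQ1 by 0.28 ± 0.10 (limma adjusted p = 0.0354) and fell by 1.34 ± 0.10 with pravastatin. The rise of Sult1b1 no longer passed with slide as a block (limma adjusted p = 0.147), with scan day as a block (0.16, limma adjusted p = 0.515), with median centring, or without SQ1 replicate 3, 4, 6, 7 or 8. Sult1c2 was at -0.20 ± 0.10 with SQ1 and fell by 1.2 ± 0.10 with pravastatin.

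Sult5a1 fell by 0.43 ± 0.05 with pravastatin, and Sult4a1 was the gene of this list that rose with it, by 0.13 ± 0.04, a call lost with the slide and scan day blocks, with median centring and without pravastatin replicate 4. With median centring, 2 of the 7 rose with SQ1, and 0 rose and 4 fell with pravastatin. Sult1d1, Sult1a1 and Sult1b1 were thus higher with SQ1 and lower with pravastatin, and Sult1e1 higher with SQ1, while the falls of Sult1a1 and Sult1b1 with pravastatin were larger than that of Sult1d1 in fitted value. These differences between genes were not tested.

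Of the 11 genes that supply sulfate and PAPS, 9 were tested. With SQ1, 2 rose and 2 fell, with a median of -0.05, and with pravastatin 0 rose and 6 fell, with a median of -0.09. Papss2, which makes PAPS in liver, rose with SQ1 by 0.49 ± 0.07 (limma adjusted p = 8.4e-05) and fell by 0.21 ± 0.07 with pravastatin (limma adjusted p = 0.0159), where the fall was lost with the slide and scan day blocks, with processed signals (-0.13), with median centring (-0.07) and without pravastatin replicate 1 or 5. Slc26a1, a sulfate carrier of the hepatocyte membrane, fell by 2.50 ± 0.09 with pravastatin (limma adjusted p = 1.63e-12) and was at -0.17 ± 0.09 with SQ1. Suox, the sulfite oxidase that makes sulfate, fell by 1.13 ± 0.07 with pravastatin and by 0.24 ± 0.07 with SQ1, the last of which was lost with median centring and with slide as a block.

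Papss1 fell by 0.23 ± 0.03 with pravastatin, a call lost with median centring (-0.09). Slc35b3, which carries PAPS into the Golgi, fell by 0.13 ± 0.03 with SQ1 and by 0.09 ± 0.03 with pravastatin. Bpnt1, which clears the PAP left by the reaction, rose with SQ1 by 0.13 ± 0.04 and fell by 0.09 ± 0.04 with pravastatin, where the sign turned with median centring, as it did for Slc35b3 (0.05 and 0.04). The calls of Slc35b3 and Bpnt1 with either drug were lost with the slide and scan day blocks and with median centring, and those with pravastatin also without any 1 of pravastatin replicates 1, 2, 3, 5, 6 and 7. The calls of Bpnt1 were lost without SQ1 replicate 4 (SQ1) and without SQ1 replicate 3 (pravastatin). With median centring 1 gene of this list rose and 0 fell with SQ1, and 2 fell with pravastatin.

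Of 9 genes of other sulfotransfer and sulfate removal, 8 were tested, of which 1 rose and 1 fell with SQ1 and 1 rose and 4 fell with pravastatin. Tpst1, which sulfonates tyrosines of proteins, fell by 0.20 ± 0.07 with SQ1 and by 0.18 ± 0.07 with pravastatin. The sulfatase genes Ids and Arsb fell with pravastatin by 0.31 ± 0.05 and 0.23 ± 0.04, Tpst2 fell by 0.23 ± 0.04, and Sumf2 rose by 0.10 ± 0.04. The calls of Tpst1 and Sumf2 were lost with the slide and scan day blocks, and those of Tpst1, Tpst2 and Arsb with median centring. Without any 1 of SQ1 replicates 1, 2, 5, 6 and 7 Tpst1 did not pass with SQ1, without any 1 of pravastatin replicates 1, 2, 3, 5, 6 and 7 it did not pass with pravastatin, and without any 1 of pravastatin replicates 1, 5 and 6 Sumf2 did not pass. With median centring 1 rose and 0 fell with SQ1, and 1 rose and 1 fell with pravastatin.

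**Figure D5:**
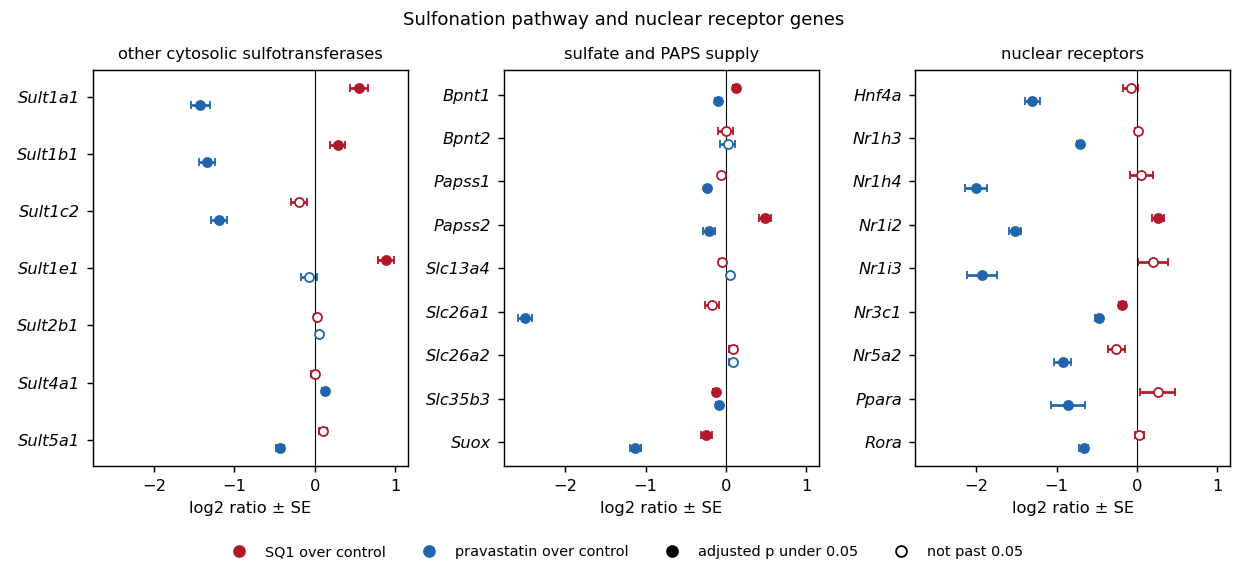
Fitted log2 ratio and standard error (horizontal axis) with SQ1 (red, upper point) and pravastatin (blue, lower point) for tested genes of 3 lists: other cytosolic sulfotransferases, sulfate and PAPS supply, and nuclear receptors. Filled points passed an adjusted p of 0.05: all 9 nuclear receptors with pravastatin, at or below -0.48, and 2 with SQ1.

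The nuclear receptors known to act on Sult2a genes were read from a list of 10, of which 9 were tested. With pravastatin 9 of 9 fell, with a median of -0.93, and with SQ1 1 rose and 1 fell, with a median of 0.03. Nr1h4, the farnesoid X receptor, fell by 2.0 ± 0.14 with pravastatin, Nr1i3 (CAR) by 1.93 ± 0.19 and Nr1i2 (PXR) by 1.52 ± 0.07. With SQ1, Nr1i2 rose by 0.26 ± 0.07 (limma adjusted p = 0.00902), Nr3c1, the glucocorticoid receptor, fell by 0.18 ± 0.05, and Nr1i3 was at 0.20 ± 0.19. With slide or scan day as a block, no receptor passed with SQ1: Nr1i2 had adjusted p = 0.0723 and 0.25, and Nr3c1 adjusted p = 0.0861 and 0.0892. The fall of Nr3c1 was also lost with median centring (-0.06) and with the mean of its probes (-0.05). With Agilent processed signals Nr1i3 was at -3.39 with pravastatin.

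Of 12 target genes of CAR and PXR, 9 were tested, 7 of which rose and 0 fell with SQ1, with a median of 0.60. With pravastatin 3 rose and 4 fell, with a median of -0.15. Cyp2b9 rose with SQ1 by 1.73 ± 0.14, Cyp2b10 by 1.32 ± 0.12 and Cyp2c55, all drug-oxidizing P450 genes, by 0.99 ± 0.10. With pravastatin Cyp3a11 fell by 4.58 ± 0.25, Cyp2c29 by 1.36 ± 0.07 and Gstm1, a glutathione transferase, by 0.96 ± 0.12, while Por, the P450 reductase, rose by 0.46 ± 0.04, Abcc2, an exporter of conjugates, by 0.31 ± 0.05 and Alas1, of haem synthesis, by 0.22 ± 0.05 (0.10 as the mean of its probes and 0.40 with median centring). Cyp2c29 (0.48 ± 0.07 with SQ1) and Cyp2c55 (-0.44 ± 0.10 with pravastatin) were higher with SQ1 and lower with pravastatin, as were Sult2a1, Sult2a2, Sult2a6 and Sult1d1. The other tested targets did not share this. Cyp2b9 (-0.09 ± 0.14) and Cyp2b10 (-0.15 ± 0.12) did not pass with pravastatin. Cyp3a11 (0.23 ± 0.25) and Gstm1 (0.12 ± 0.12) did not pass with SQ1, and Por, Abcc2 and Alas1 were higher with both drugs. For Cyp2c55 the sizes depended on the background correction, at 1.63 with SQ1 and -1.31 with pravastatin in the processed signals, and at -0.72 with pravastatin with an offset of 10. The genes of these lists were chosen with earlier results known, and no part of them in the Sult2a ratios was tested.

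Markers of cell types moved beside the ratios of both drugs. All 9 hepatocyte markers fell with pravastatin, with a median of -1.45, and 3 of 9 fell with SQ1, with a median of -0.20. Of 7 Kupffer cell and leukocyte markers, 4 fell with SQ1 and 5 with pravastatin, with medians of -0.25 and -0.46. The summed level of the 9 hepatocyte markers ran from 18.42 to 19.56 in pravastatin-treated cells, against 20.20 to 20.42 in their controls without overlap, and from 19.57 to 20.22 in SQ1-treated cells, against 19.70 to 20.41 in their controls. That of the 7 Kupffer cell and leukocyte markers ran from 12.68 to 13.84 in pravastatin-treated cells, against 13.04 to 14.13 in their controls, and from 12.80 to 13.71 in SQ1-treated cells, against 13.06 to 14.06 in their controls. With SQ1, 1 of 7 stellate markers rose, Lrat by 0.95 ± 0.10, 2 of 6 endothelial markers rose, Lyve1 by 0.47 ± 0.08 and Pecam1 by 0.26 ± 0.06, and 2 of 5 cholangiocyte markers fell, Krt19 by 0.50 ± 0.12 and Cftr by 0.22 ± 0.05. With pravastatin, 2 of 7 stellate markers fell, 4 of 6 endothelial markers fell and 1 rose, and 3 of 5 cholangiocyte markers fell and 1 rose. The part of these cells in the ratios of the Sult genes was not tested. Sult1d1 was at -0.95 with pravastatin, and Sult2a1, Sult2a2 and Sult2a6 were at -0.32 to -0.44. These fitted falls were smaller than the hepatocyte median. For the Sult2a genes, whose signals were near background, the offset in the fit pulls ratios towards 0. With Agilent processed signals Sult2a1 was at -1.06, Sult2a2 at -1.25 and Sult2a6 at -1.15, and no hepatocyte median is given for those signals. The falls of these Sult2a genes are thus not ranked against the hepatocyte markers. The part of the hepatocyte markers' fall in the ratios of these Sult genes was not tested.

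The genes whose ratios ran most like each member over the 16 arrays were ranked by root mean square difference. Nearest to Sult1d1 were AA986860 (0.272), St3gal5 (0.375), a ganglioside synthase, and Hsdl2 (0.400), a peroxisomal dehydrogenase. Nearest to Sult2a1 were Acot5 (0.321), Cyp2c55 (0.364) and Cd28 (0.380). Cyp2c55 was also nearest to Sult2a2 (0.289) and to Sult2a6 (0.277), followed for both by Foxo1 and Myom3. Nearest to Sult2a4 were Myom3 (0.198), Cpeb2 and Rab7. For Sult2a3, nearest to Cyp2c66 (0.0922), Ap1g1 and Tlr7, and for Sult2a8, nearest to Zscan26 (0.116), Angptl6 and Adrb3, small ratios make many genes alike. Cyp2c55 was as dim as Sult2a1, Sult2a2 and Sult2a6, and the sizes of their ratios depended on the background correction, as did that of Sult2a4. Whether their nearest genes stay the same with another correction was not tested. This likeness is a description over arrays that share slides and controls.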

How the data were processed

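The deposited scanner files hold, per the file headers, median spot and local background intensities for both dyes, not normalized by the authors, and signals that Agilent Feature Extraction 11.0.1.1 had background-subtracted and dye-normalized, with their ratio on the log10 scale. The deposited series table holds log2 values, which follow that ratio turned to treated over control (correlation per array 0.742 to 0.999). Its own centring is not given in the sources used here.

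Intensities were processed in R 4.3.3 with limma 3.58.1: normexp with an offset of 50, loess within each array, and log2 ratios fitted over 16 arrays with a coefficient per drug, signed by dye orientation, and a constant for the dye effect (13 residual degrees of freedom). Probes were named through their RefSeq accession (27234 of 39429 probes). A probe was tested if well above background on at least 4 treated arrays of a drug or 8 control channels, given a ratio on 7 or more arrays per drug, and a gene was represented by its brightest probe. P-values were two-sided and adjusted by Benjamini-Hochberg over 15053 genes, with a threshold of 0.05. Levels were read after normalization between channels (Aquantile). The number of arrays limits the precision. On simulated data the fit was tested with known changes.

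The numbers were read as pairing the samples, since same-numbered control cultures carry 1 number for both drugs. Deviations of same-numbered SQ1 and pravastatin arrays correlated at 0.221 to 0.718, over 0.1 in all 8 pairs. For only 3 of the 8 numbers was the best match the same number. Same-numbered arrays also lie on slides that hold the same set of numbers, so that the correlations do not show pairing of single cultures. The members and lists were chosen with earlier results of these data known. Genes named were the 9 members, from each list up to 3 past the threshold in each direction per drug and any whose direction differed between drugs, and the 3 nearest in pattern to each tested member. Some genes that the naming rule covers are not reported here. The plan had named mean spot signals, and the files hold medians. Alternatives were blocks for slide, replicate number and scan day, processed signals, the series table, median centring, array weights, no filter on dim probes, the mean of a gene's probes, leaving out each array and, chosen after the dim signals were seen, an offset of 10.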

Additional observations from a re-analysis of the deposited data

Results flagged for a closer look

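Sult2a2 on SQ1 replicate 5 had a ratio of 0.1391, below the other 7 SQ1 arrays, where the median of all 8 was 0.97 (gap over range 0.571, above Dixon's critical value for 8 samples). Chance alone picks out about 1 in 20 groups by this criterion. The array was also the lowest for Sult2a1, Sult2a3, Sult2a4, Sult2a6 and Sult1d1, and without it Sult2a2 averaged 1.01.

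The SQ1 ratio differed between slides for 2 members: Sult2a1 by -0.58 (slide 1 minus slide 2, limma adjusted p = 0.0438) and Sult2a4 by -0.41 (limma adjusted p = 0.0409). The pravastatin ratio of Sult2a8 differed by -0.55 (slide 3 minus slide 4, limma adjusted p = 0.0118). Slide and set of cultures cannot be told apart in these differences.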

How the results depend on the processing

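The counts of genes called were 4860 with SQ1, 10041 with pravastatin and 7996 between the drugs. With SQ1 they were 2543 when slide was a random block, 2239 when scan day was the block and 2071 with median centring, where 71.1% were higher, beside 48.7%. Between the drugs median centring left 3697 and slide as a random block 5716. Median centring also left 11 genes that differed between the SQ1 slides, beside 1847, and 143 between the pravastatin slides, beside 3275. The share called higher with pravastatin was 46.3%, and 56.8% with Agilent processed signals and 61.0% with median centring. Between the drugs it was 55.1%, and 44.7% with processed signals. Leaving out 1 array gave 4051 to 5104 with SQ1, 9612 to 10045 with pravastatin and 7480 to 8273 between the drugs. With replicate number as a block the counts were 4725, 9869 and 9620, and 9412 from differences between same-numbered arrays. Of the tested members this block changed 3 calls: Sult2a8 passed with both drugs and Sult2a1 no longer passed with pravastatin. It changed no call of the other genes named from the lists.

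Over the alternatives, 5 or 6 members passed as higher with SQ1, and 3 to 6 as lower with pravastatin. Sult2a3 with SQ1 no longer passed under median centring or the scan day block. Sult2a1 with pravastatin was lost without pravastatin replicate 4 and without replicate 7, with array weights and with each block, and Sult2a3 with the slide and scan day blocks. Sult2a8 passed as lower with SQ1 without SQ1 replicate 4 or 8 or pravastatin replicate 1 or 4, and with pravastatin without pravastatin replicate 4 or 8, and with array weights for both drugs. Sult2a4 passed as lower with pravastatin in the processed signals and the deposited table. The slide difference of Sult2a1 turned to 0.011 with processed signals and, like that of Sult2a4, no longer passed with an offset of 10. Signal near background limits the sizes for Sult2a1, Sult2a2, Sult2a3, Sult2a4 and Sult2a6.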
